A study of Mus musculus with 3 samples.

Results

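U3, U8, U13 and U17 are small nucleolar RNAs (snoRNAs) that act on rRNA or its precursor. Their reads were measured in extracellular vesicles (EVs) of the postnatal day 7 (PND7) mouse testis. The members are the catalogue entries of the snoRNA class that name U3, U8, U13 or the SNORA73 family, which is U17, with the entries named for fungi or plants left out. This rule found 4 entries among 494 snoRNA entries and 2780 small RNA entries in all, and each of the 4 was counted in all 3 libraries. The only group, PND7 testis EVs, comprised 3 libraries, each from the decapsulated testes of 10 male C57/BL6 mice at PND7, and the EVs of every library were treated with proteinase K, PMSF and RNase A before RNA extraction. There was no control group and no other age. A library is thus a pool of animals and of all testicular cell types, and the vesicles of each cell type cannot be told apart, nor can fewer vesicles of a type from less RNA in each. The titles carry the word treated, which no other label explains. The gonadal miR-202-5p had 16196, 28519 and 24105 mature reads in replicates 1, 2 and 3, its other arm, miR-202-3p, had 2271, 1452 and 1361, and the germ cell miR-449a-5p had 385, 1066 and 630. Mature miR-34c-5p, the other germ cell miRNA looked at, had 0 reads in each library, where a count of 0 allows up to 3 reads. Of the miRNAs of other tissues, miR-122-5p of liver had 0, 1 and 0 reads, miR-124-3p of neurons 0 in each, and miR-1a-3p of muscle 185, 240 and 314.

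Most snoRNAs guide the chemical modification of single rRNA nucleotides. Of the 4 families described here, U3, U8 and U17 instead act mainly in the processing of the long precursor. From it the 18S, 5.8S and 28S rRNAs are cut in the nucleolus. U3 pairs with the external spacer and the 18S part of the precursor and organises the small subunit processome, U8 is needed for the maturation of 5.8S and 28S rRNA, U17 is needed for 18S rRNA, and U13 pairs with 18S rRNA where a cytidine is acetylated. U3, U8 and U13 carry the C and D boxes, whereas U17 carries the H and ACA boxes.

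Annotated mouse genes of U3, U8 and U17 are shown because the counts are given per family and several copies share them. The letters are those of the GENCODE vM21 transcripts on GRCm38, the assembly that is also called mm10 and that the submitters' processing notes name. Each is written 5′ to 3′ with the RNA's T in place of U. In U3 and U8 the capitals mark TGATGA, the core of the C box, and the last CTGA, the D box. In U17 they mark the ACA that ends 3 bases before the 3′ end.
Rnu3a (U3): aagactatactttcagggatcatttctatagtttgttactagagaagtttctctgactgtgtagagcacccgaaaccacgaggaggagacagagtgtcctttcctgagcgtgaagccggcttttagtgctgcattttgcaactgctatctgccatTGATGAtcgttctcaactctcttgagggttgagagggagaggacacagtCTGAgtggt
Rnu3b1 (U3): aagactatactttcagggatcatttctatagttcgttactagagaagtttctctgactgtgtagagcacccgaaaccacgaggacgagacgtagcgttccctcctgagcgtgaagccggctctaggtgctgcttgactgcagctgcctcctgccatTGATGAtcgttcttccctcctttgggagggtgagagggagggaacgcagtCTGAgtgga
Snord118 (U8): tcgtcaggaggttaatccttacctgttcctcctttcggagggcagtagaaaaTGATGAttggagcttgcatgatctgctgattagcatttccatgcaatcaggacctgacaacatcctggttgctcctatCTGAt
Snora73a (U17): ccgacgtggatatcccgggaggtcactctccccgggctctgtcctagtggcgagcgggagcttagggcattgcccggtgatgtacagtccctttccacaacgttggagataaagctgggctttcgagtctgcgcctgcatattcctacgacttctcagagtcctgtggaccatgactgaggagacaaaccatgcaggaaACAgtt
Rnu3a lies at chr10:40258467-40258679 on the plus strand, outside other annotated genes, and is 213 bases long. The 4 copies of Rnu3b, Rnu3b1, Rnu3b3, Rnu3b4 and Rnu3b2 in the order of their positions, lie on the plus strand of chromosome 11 between 87443237 and 87471582, all in introns of Tex14, which encodes a protein of the bridges between germ cells. These copies are identical over their 215 bases. Rnu3a differs from them by 31 edits, an identity of 85.6%, and shares their first 33 bases, which lie in the part of U3 that pairs with precursor rRNA. Snord118 lies at chr11:69073427-69073561 on the plus strand, outside other annotated genes. Snora73a, at chr4:132352775-132352979, and Snora73b, at chr4:132352322-132352526, lie on the minus strand within Snhg3, their non-coding host gene, and within Rcc1. Snora73a overlaps an exon of a Snhg3 transcript, and both overlap an exon of the antisense gene Gm17300. The 2 copies of U17 differ by 7 edits, an identity of 96.6%. The reads of the copies cannot be divided. As the sources used here do not give the use of strand in counting, reads of Gm17300 cannot be told apart from those of U17. Reads of the Snhg3 exon that Snora73a overlaps are on the same strand and cannot be told apart either. Of the 1507 annotated snoRNA transcripts of the mouse, 24.0% hold TGATGA followed by CTGA on the transcribed strand, and 18.3% hold ACA at 3 bases from the 3′ end. These letters describe the RNAs and were not used in counting.

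U3 was by far the most counted of the families. It had 19307, 8498 and 12709 reads in replicates 1, 2 and 3, and it was the 2nd most counted of all snoRNA entries in each library. U8 followed with 5264, 2693 and 2307 reads and ranks 8, 11 and 13. U17 had 836, 646 and 1180 reads and ranks 72, 39 and 27, and U13 had 414, 249 and 164 reads and ranks 118, 90 and 135. These ranks, and the shares below, are of reads not divided by gene length. The read ranges of the 4 families did not overlap. Together the 4 entries held 10.6%, 8.94% and 10.7% of the snoRNA reads, a mean of 10.1% ± 1.01 (SD, n = 3). Within this sum U3 made up 74.3% ± 3.71, U8 18.9% ± 4.28, U17 5.27% ± 1.99 and U13 1.56% ± 0.531 (SD, n = 3 each). The plot of all snoRNA entries by rank places U3 beside the highest entry and U13 in the long slope of entries with few reads.

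**Figure D1:**
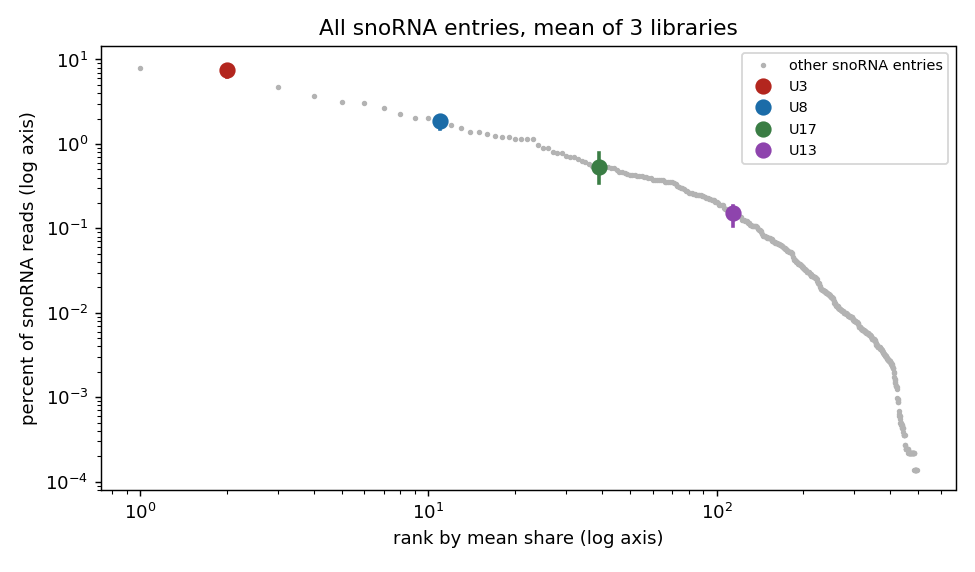
Mean percent of snoRNA reads over the 3 libraries (y axis, log) of all 494 snoRNA entries against their rank by that mean (x axis, log), with U3, U8, U17 and U13 coloured and vertical bars from the lowest to the highest library. U3 sits at 7.53%, U8 at 1.89%, U17 at 0.532% and U13 at 0.154%.

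The shares of the single families were steady for U3 and less so for U17. U3 held 7.95%, 6.28% and 8.34% of the snoRNA reads in replicates 1, 2 and 3, and the exact binomial (Clopper-Pearson) 95% interval in replicate 2, from 6.16% to 6.41%, lay below the intervals of the other libraries. U8 held 2.17%, 1.99% and 1.51%. U13 held 0.170%, 0.184% and 0.108%, with an interval from 0.0918% to 0.125% in replicate 3, the library with the fewest U13 reads. Both U8 and U13 were lowest in replicate 3, where U17 was highest. U17 held 0.344%, 0.478% and 0.775%, and none of its intervals, of which the widest runs from 0.731% to 0.820%, met another. The intervals cover counting error only, since copies made by PCR were not told apart, and within each family the libraries differed by more than that, except U13 in replicates 1 and 2, whose intervals, 0.154% to 0.188% and 0.162% to 0.208%, overlapped. The highest share exceeded the lowest 1.33-fold for U3, 1.43-fold for U8, 1.71-fold for U13 and 2.25-fold for U17, against a median of 1.81-fold over the 132 snoRNA entries with at least 100 reads in every library. Of these entries 112 had a larger spread than U3 and 32 a larger spread than U17.

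Relative to all clean reads, replicate 1 stood apart from the other libraries. In counts per 1000000 clean reads (CPM), U3 had 751, 327 and 455 in replicates 1, 2 and 3. U8 had 205, 104 and 82.6 CPM and U13 16.1, 9.58 and 5.87 CPM, both with the same order of libraries. U17 had 32.5, 24.8 and 42.2 CPM and was the only family not highest in replicate 1. This height of replicate 1 was shared by the class, as 111 of the 132 entries had their highest CPM there. The snoRNA class held 0.944%, 0.520% and 0.545% of the clean reads, and the snRNA class 0.539%, 0.271% and 0.328%. Depth was alike, at 25716952, 26002463 and 27939308 clean reads. The part of these class levels in the height of U3, U8 and U13 in replicate 1 was not tested.

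**Figure D2:**
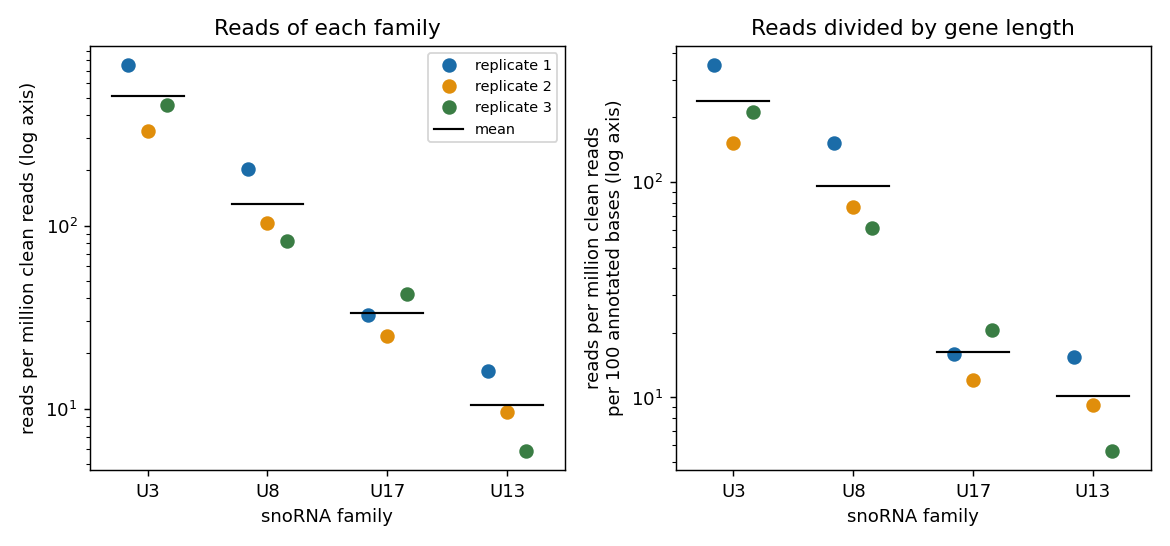
Reads of each family in CPM (left) and the same divided by the annotated length, per 100 bases (right), on log axes, with 1 point per library and a line at the mean. U3 is highest and U13 lowest by mean in both panels, replicate 1 is highest for U3, U8 and U13, and replicate 3 for U17.

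Since U3 and U17 are longer than U8 and U13, levels were compared per base of the annotated gene, with 214.6 bases as the mean of the U3 genes, 135 for U8, 104 for U13 and 205 for U17. In reads per base, U3 had 90.0, 39.6 and 59.2 in replicates 1, 2 and 3 and U8 had 39.0, 19.9 and 17.1. U17 had 4.08, 3.15 and 5.76 reads per base and U13 3.98, 2.39 and 1.58. The order U3, U8, U17, U13 thus held in each library, although U17 and U13 were almost level in replicate 1. On the log2 scale, the ratio of U3 to U8 per base was 1.21, 0.99 and 1.79, with a mean of 1.33 ± 0.42 (SD, n = 3). The ratio of U8 to U17 was 3.26, 2.66 and 1.57, with a mean of 2.50 ± 0.86. The ratio of U17 to U13 was 0.03, 0.40 and 1.87, and its mean of 0.77 was smaller than its SD of 0.97. Without replicate 3 this mean was 0.22, so that its size rests on that library. With gene lengths from RefSeq, which annotates U13 as a shorter RNA, the ratio of U17 to U13 in replicate 1 was -0.05, so these neighbours did not differ beyond their spread. U8 and U13, the families with the most alike pattern over the libraries, kept a log2 ratio of 3.29, 3.06 and 3.44, with a mean of 3.26 ± 0.19 (SD, n = 3). The remaining log2 ratios were 4.59 ± 0.60 for U3 to U13 and 3.83 ± 0.57 for U3 to U17. A two-sided exact permutation test that flips the sign of each library's ratio gave p = 0.25 for each of the 6 ratios, and an adjusted value of 0.25 after the Benjamini-Hochberg correction. This is the smallest p that 3 libraries allow, so no ratio could pass 0.05. The files hold no positions of reads within an RNA, so reads per base assumes an even spread over the gene.

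rRNA is the product that these snoRNAs help to make, and the families were therefore set against the rRNA reads of the same library. U3 had 2.94, 1.59 and 1.93 reads per 1000 rRNA reads in replicates 1, 2 and 3, a mean of 2.15 ± 0.703 (SD, n = 3), and U8 had 0.801, 0.503 and 0.350. U17 had 0.127, 0.121 and 0.179 reads per 1000 rRNA reads and U13 0.0630, 0.0465 and 0.0249. The 4 families together had 3.93, 2.26 and 2.48, a mean of 2.89 ± 0.908 (SD, n = 3). Replicate 1 was again the highest for U3, U8 and U13 and replicate 3 for U17. The whole snoRNA class had 37.0, 25.2 and 23.1 reads per 1000 rRNA reads, so replicate 1 was the highest for the class as well. The highest value exceeded the lowest 1.85-fold for U3, 2.29-fold for U8, 2.53-fold for U13 and 1.48-fold for U17, and the median over the 132 entries was 2.14-fold.
The rRNA taken as denominator changed this picture, because the share of 5.8S rRNA in the rRNA reads was 17.4%, 14.1% and 21.99% and that of 5S rRNA 7.99%, 5.82% and 4.45%. U17 had 0.730, 0.854 and 0.814 reads per 1000 reads of 5.8S rRNA, a spread of 1.17-fold, and only 1 of the 132 snoRNA entries had a smaller one. This was the narrowest of the ratios of U17 over the denominators tried. U3 had 16.9, 11.2 and 8.76 reads per 1000 reads of 5.8S rRNA and U13 0.362, 0.329 and 0.113. U8, the family that serves 5.8S and 28S rRNA, had 4.60, 3.56 and 1.59 reads per 1000 reads of 5.8S rRNA, a spread of 2.89-fold. It had 6.16, 3.31 and 2.28 per 1000 reads of large subunit rRNA, a spread of 2.69-fold. Against 5S rRNA, which is transcribed apart from the precursor on which these snoRNAs act, the snoRNA entries in general spread least, with a median of 1.84-fold over the 132 entries, and U3, U8 and U13 likewise had their narrowest ratios there. U3 had 36.8, 27.3 and 43.3 reads per 1000 reads of 5S rRNA, a spread of 1.59-fold, with 39 of 132 entries below it. U8 had 10.0, 8.64 and 7.86 reads per 1000 reads of 5S rRNA, a spread of 1.28-fold, with 9 entries below it. U13 had 0.789, 0.799 and 0.559, a spread of 1.43-fold, with 21 entries below it. U17 spread most against 5S rRNA, 2.52-fold, and 107 entries spread less. U3 had 4.82, 2.46 and 3.34 reads per 1000 reads of small subunit rRNA, the subunit it serves, a spread of 1.96-fold against a median of 2.16-fold. U17, which is needed for the same subunit, had 0.209, 0.187 and 0.310 there, a spread of 1.66-fold, with 33 entries below it. With 1 value per library these spreads are descriptions of 3 libraries.

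**Figure D3:**
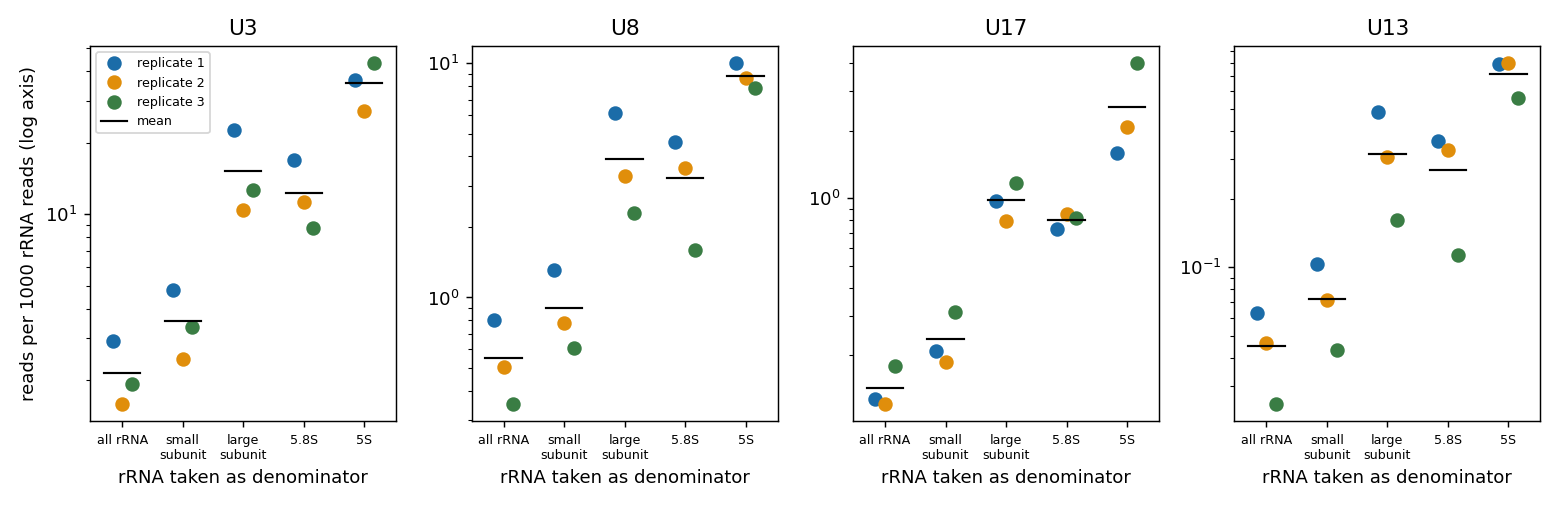
Reads of U3, U8, U17 and U13 (1 panel each) per 1000 reads of all rRNA, small subunit, large subunit, 5.8S and 5S rRNA, on log axes, with 1 point per library and a line at the mean. The points of U17 lie closest together against 5.8S rRNA, between 0.730 and 0.854, and those of U8 against 5S rRNA, between 7.86 and 10.0.

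Other RNAs that act on precursor rRNA were read beside the families. U14 (SNORD14), a box C/D RNA needed for 18S rRNA, had 2961, 1385 and 1822 reads in replicates 1, 2 and 3, and U22 (SNORD22), also needed for 18S rRNA, had 3322, 1334 and 1921. Both followed U3, with 6.52, 6.14 and 6.98 reads of U3 for each read of U14 and 5.81, 6.37 and 6.62 for each read of U22. RNase MRP, which cuts the first internal spacer and is counted outside the snoRNA class, had 1845, 880 and 905 reads, and U3 had 10.5, 9.66 and 14.04 reads for each. Of the box H/ACA RNAs, E2 (counted with SNORA6 in the SNORA62/SNORA6 family) had 1504, 418 and 452 reads, E3 (SNORA63) 879, 258 and 337, and U19 (SNORA74) 598, 181 and 290. The entry snR30, named for the yeast counterpart of U17, had 68, 14 and 25 reads. All 4 of these H/ACA entries had their highest share of snoRNA reads in replicate 1, where U17 had its lowest.
U17 differed in this respect from most, but not all, of the entries named SNORA. SNORA entries held 14.2%, 7.45% and 10.9% of the snoRNA reads, and U17 held 2.43%, 6.41% and 7.12% of the SNORA reads. Among the 71 SNORA entries its rank was 17 in replicate 1 and 3 in each of replicates 2 and 3. Of the 26 SNORA entries with at least 100 reads in every library, 22 had their highest share of snoRNA reads in replicate 1. Another 2, U17 and SNORA7, had it in replicate 3. Over all 132 snoRNA entries with that many reads, 64 had their highest share in replicate 1 and 36 in replicate 3. Conversely, 2 of the 26, U17 and SNORA14, had their lowest share in replicate 1. Outside the SNORA entries others, such as SNORD57 and SNORD15, were also lowest there, and their number among the 132 was not counted. At lower read counts, SNORA72 and SNORA47 were, like U17, lowest in replicate 1 and highest in replicate 3. SNORA72 held 0.0239%, 0.0288% and 0.0571% of the snoRNA reads in replicates 1, 2 and 3, and SNORA47 0.0189%, 0.0266% and 0.0584%. These counts were made after the values were seen, and they carry no test.

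**Figure D4:**
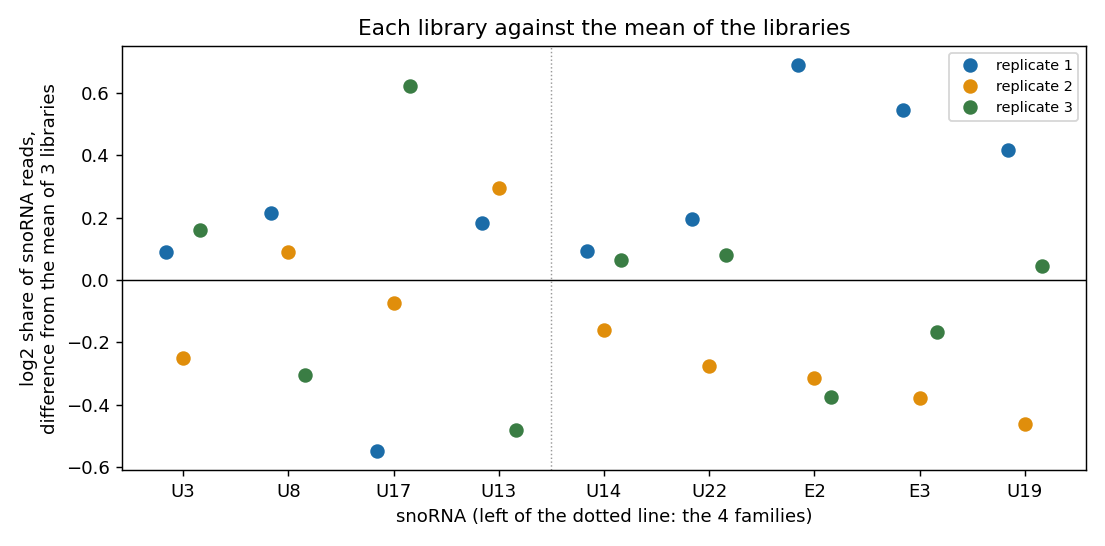
Log2 share of snoRNA reads in each library minus the mean over the 3 libraries (y axis), for the 4 families (left of the dotted line) and U14, U22, E2, E3 and U19 (right), with 1 point per library. U17 is highest in replicate 3 and lowest in replicate 1, whereas E2, E3 and U19 are highest in replicate 1.

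The snoRNA entries whose reads followed those of U3 most closely were sought among the 132 entries with at least 100 reads in every library, by the range over the 3 libraries of the log2 ratio of reads to U3. SNORD101, with 483, 206 and 320 reads, had the smallest range, 0.05, around log2 ratios of -5.32, -5.37 and -5.31. SNORD18, with 1064, 441 and 648 reads, came next with a range of 0.11, and SNORD123, with 314, 127 and 191 reads, had 0.12. The median range was 0.84. The ranges of U8, U17 and U13 were 0.80, 1.10 and 1.18, so that U17 and U13 followed U3 less closely than the median entry. Likeness over 3 libraries is a description and says nothing of a shared function. The highest entry, SNORD20, held 8.02%, 6.05% and 9.63% of the snoRNA reads against 7.95%, 6.28% and 8.34% for U3, and their order differed between libraries. SNORD104 was the third by mean share, with 3.10%, 8.80% and 2.26%.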

How the data were processed

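Small RNA of PND7 testis EVs was sequenced by the authors on the BGISEQ-500 platform in 3 libraries, grouped by their labels. After low-quality reads had been removed, the authors mapped clean reads with Bowtie2 and cmsearch to the genome (mm10 in the submitters' processing notes) and to small RNA databases, in a fixed order that gives each read to 1 class. Tool versions are not given in the sources used here. The deposited values are raw counts of reads per entry and per class, and the entries of each class summed to the class count given for that library. An entry is an Rfam family, so paralogous genes share its count, and reads of a family that an earlier database took are not in it.

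Shares, CPM and ratios were computed from the counts, with mean and SD over libraries and exact binomial (Clopper-Pearson) 95% intervals. Snora73, Snord and Rnu3 gene positions, lengths and letters came from GENCODE vM21, with the shorter transcript where a gene had several, and RefSeq lengths from GRCm38.p6. Log2 ratios were tested with the exact sign-flip test over libraries. Libraries were compared over the 236 snoRNA entries with at least 10 reads in each. Per degree of freedom, the chi-square of each pair, which was tested on simulated data, lay between 83.9 and 144, so every pair of libraries differed by more than counting noise. The labels make each library a replicate, and the paper counts 3 samples, each of EVs pooled from 10 mice. Its statistics section gives a smaller number for small RNA sequencing, in sets of independent cultures for each treatment group. Neither the labels nor the paper says whether the preparations were made on separate occasions. With 3 libraries the sign-flip p is 0.25 whenever all log2 ratios share a sign, so it does not measure the spread between libraries. Depth was 135236 to 242841 snoRNA reads.

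The named RNAs are the entries of the rule, a list of other RNAs of rRNA processing, the rRNA entries, a list of tissue miRNAs, the highest snoRNA entries, and the 3 entries closest to U3. The sequence and position of the U13 gene are not reported here. The members and lists were chosen with earlier results of these data known. Alternatives changed the denominator, pooling, a minimum of 10 reads, the U3 entries named for fungi or plants, gene length and the libraries used, and 2 more, snR30 and RefSeq lengths, were added after the data were seen. Intervals came from SciPy 1.17.1, figures from matplotlib 3.10.9, and all else from numpy 2.4.6 and pandas 2.3.3 under Python 3.11.15.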

Additional observations from a re-analysis of the deposited data

Results flagged for a closer look

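Reads were also counted on U3 entries named for other kingdoms, which the main values left out and an alternative counted with U3. The Fungal U3 entry had 18, 63 and 2 reads in replicates 1, 2 and 3, the last of which is below the 3 reads that a count of 0 allows. The Plant U3 entry had 33, 38 and 55 reads. Both are small beside mouse U3, at most 0.741% of its reads for the Fungal entry and 0.447% for the Plant entry, both in replicate 2. There was no control library, and the source of these reads was not tested. Other snoRNA entries named for other organisms stayed in the ranks and in the snoRNA reads that the shares divide by. Among them, A. fumigatus Afu_294 held 1.96%, 3.21% and 4.02% of the snoRNA reads in replicates 1, 2 and 3. No alternative took such entries out as a set.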

How the results depend on the processing

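Of 36 values of the shares and of the ratios to rRNA under alternatives, 28 stayed within the SD between libraries. The other 8 changed the denominator, which sets the size by construction. Among the 28 are the means that left out a replicate. With 3 libraries such a mean cannot move beyond that SD, so these values do not measure steadiness. Of the clean reads, the 4 families held 0.0685% and U3 0.0511%, and of all annotated small RNA reads 0.191% and 0.142%. Per 1000 reads of 5.8S rRNA the families had 16.6 reads and U3 12.3, and per 1000 reads of small subunit rRNA 4.75 and 3.54. Leaving out each replicate in turn gave from 9.78% to 10.7% of snoRNA reads for the families and from 7.12% to 8.15% for U3, and from 2.37 to 3.20 and from 1.76 to 2.43 reads per 1000 rRNA reads.

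All 48 alternative values of the 6 log2 ratios kept their direction, but for many of them this was fixed beforehand. In each main ratio the libraries all shared a sign, so leaving out a replicate or summing the reads could not reverse it. The added U3 or snR30 entries leave a ratio unchanged where neither of its families gained reads. Leaving out each replicate moved the ratio of U17 to U13 from 0.22 to 1.13, that of U8 to U17 from 2.12 to 2.96 and that of U3 to U8 from 1.10 to 1.4996, while U3 to U13 lay between 4.27 and 4.86, U3 to U17 between 3.51 and 4.06 and U8 to U13 between 3.18 and 3.36. Without the division by length the ratio of U17 to U13 was 1.75 and that of U3 to U8 was 2.00. With RefSeq lengths, the mean ratio of U17 to U13 was 0.68, but its sign in replicate 1 changed. No paired comparison of groups was possible because there is a single group. U13 had the fewest reads, 164 to 414, and its shares are the least precise.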
